A study of Mus musculus with 7 samples.

Results

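The Tppp family of the mouse comprises 3 genes, Tppp, Tppp2 and Tppp3, and all 3 have a row among the 25655 gene symbols of the deposited count table. They were taken by symbol and described in every library. Tppp3 is the gene carried by the vector of this study, and Tppp and Tppp2 are its endogenous relatives. Whole retinas of wildtype C57BL/6 mice were collected 2 days after the optic nerve was crushed, which damages ganglion cell axons. One group had received AAV2, an adeno-associated virus commonly used to carry genes into ganglion cells, with a Tppp3 overexpression construct. The other had received a control AAV2 that carries a CMV promoter. The crush and an AAV2 vector were therefore common to both groups, and no uninjured or untreated retina entered the comparison. The labels do not give the age of the mice or the promoter of the Tppp3 construct. Each group was represented by 3 libraries whose column matched a sample title, and 1 further column named as a Tppp3 library matched none and was not used. Values for all libraries or for each library of a group cover these 6. They held between 10961443 and 21843892 gene counts, and every Tppp3 AAV2 library was deeper than every control library.

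Tubulin polymerization-promoting proteins bind tubulin and favour the assembly and bundling of microtubules, the hollow filaments that stiffen axons and serve as tracks for transport. TPPP, also called p25alpha, is best known from myelinating oligodendrocytes of the brain, where it is abundant, and it binds the tubulin deacetylase HDAC6. TPPP3 lacks the extended N-terminal tail of TPPP and is known as a marker of tendon sheath cells and of multiciliated cells, and TPPP2 is known from the testis.

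The coding sequences show how far the family members can be told apart by sequencing. In the GENCODE M21 transcripts, the coding sequence with its stop codon is 531 bases long in Tppp3, 657 in Tppp and 513 in Tppp2, each on 3 coding exons. Aligned over the shared part, Tppp3 was identical to Tppp at 68.9% of 531 positions and to Tppp2 at 66.5% of 513 positions. The most alike stretch of 90 bases is printed for each gene, 5′ to 3′ on the coding strand, with capitals at the 55 positions where all 3 agree. It spans coding bases 94 to 183 of Tppp3, 214 to 303 of Tppp and 79 to 168 of Tppp2, counted from the A of the start codon.
Tppp3: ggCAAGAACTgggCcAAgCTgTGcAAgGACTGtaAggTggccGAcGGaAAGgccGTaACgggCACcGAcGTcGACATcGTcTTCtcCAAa
Tppp: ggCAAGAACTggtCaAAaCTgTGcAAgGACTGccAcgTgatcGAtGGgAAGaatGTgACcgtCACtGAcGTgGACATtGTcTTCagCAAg
Tppp2: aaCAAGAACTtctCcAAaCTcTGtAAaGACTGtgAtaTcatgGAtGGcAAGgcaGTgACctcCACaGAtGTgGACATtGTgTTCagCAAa
Even here Tppp3 differed from Tppp at scattered positions, sharing 68 of the 90 bases with it and 60 with Tppp2. Over whole transcripts, the longest run without a mismatch was 15 bases between Tppp3 and Tppp and 14 between Tppp3 and Tppp2. None of the 978 windows of 150 bases in the Tppp3 transcript, the length of 1 read, occurred in the Tppp or Tppp2 transcript. The printed stretch is coding sequence, which a Tppp3 expression vector and the native gene can share, and reads from these sources carry the same gene symbol in the table.

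Tppp3, the gene delivered by the vector, was higher in each Tppp3 AAV2 library than in any control library. The control libraries, replicates 1, 2 and 3, held 212, 362 and 310 Tppp3 counts, and the Tppp3 AAV2 libraries held 1057, 809 and 881. As CPM, counts relative to the TMM-scaled library size, these were 18.7, 22.2 and 28.0 in the controls, then 53.7, 36.5 and 41.8 in the Tppp3 AAV2 libraries. The groups were separated by the gap between control replicate 3 and Tppp3 AAV2 replicate 2. Counting error alone gave those libraries 95% Poisson intervals of 24.98 to 31.3 CPM and 34.0 to 39.1 CPM, which did not meet. The control libraries, which had received no Tppp3 construct, still held at least 212 Tppp3 counts each.

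**Figure D1:**
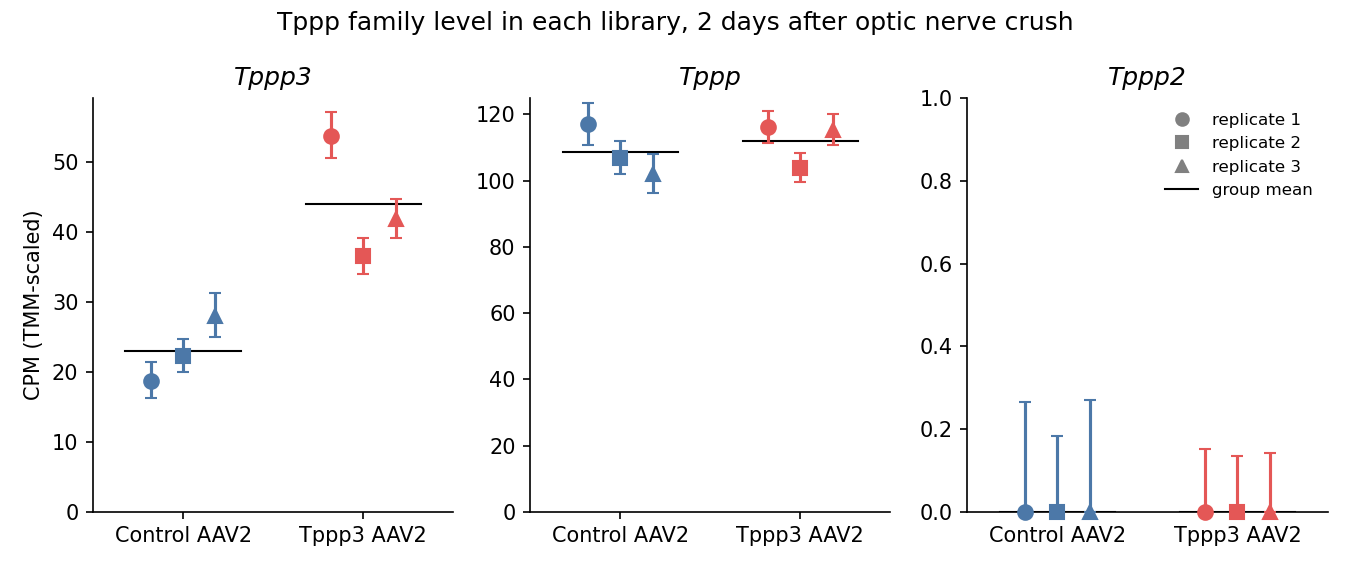
Level of Tppp3, Tppp and Tppp2 in each library, in TMM-scaled CPM on the vertical axis, with the groups on the horizontal axis and a line at each group mean. Error bars are 95% Poisson counting intervals, or for Tppp2, at 0 counts in each library, the limit that 3 counts would give. The Tppp3 points lie between 18.7 and 28.0 in the controls and between 36.5 and 53.7 with the vector, while the Tppp points of both groups overlap.

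The mean Tppp3 level was 23.0 ± 4.68 CPM in the controls and 44.0 ± 8.81 CPM with Tppp3 AAV2 (SD, n = 3 each). The fitted difference was 1.91-fold, a log2 fold change of 0.94 ± 0.20 (SE) with a 95% interval from 0.45 to 1.42. The interval belongs to this gene alone and is not adjusted for the number of genes. In edgeR's quasi-likelihood test the unadjusted p was 0.0031 and the adjusted p over 14750 tested genes was 0.639, so Tppp3 did not pass the threshold of 0.05. DESeq2's Wald test placed it past the threshold, at an adjusted p of 1.3e-05 for the same log2 fold change of 0.94. A two-sided exact permutation test over the libraries gave p = 0.1, the smallest value that the 20 ways of dividing 6 libraries allow.

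The spread of Tppp3 between libraries of a group was well above counting error. Its coefficient of variation was 20.4% among the controls and 20.03% among the Tppp3 AAV2 libraries, where counting error alone would give 5.93% and 3.32%. The biological coefficient of variation estimated for Tppp3 by edgeR was 17.0%, against 11.2% for the trend at its abundance. Tppp varied by 7.08% and 6.14% in the same libraries, also above its own counting error of 2.71% and 2.07%. Counting error does not include the variation between retinas, which these spreads do.

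Tppp3 was among the genes with the largest fitted differences at a level of at least 10 CPM. Of the 10390 tested genes that averaged at least 10 CPM, 4 had a larger fitted fold change in favour of Tppp3 AAV2 and 2 differed by more in favour of the controls. Among all tested genes these numbers were 62 and 64. No gene passed as higher in edgeR's test (0 of 14750, or 0%), while 542 genes (3.67%) were higher at an unadjusted p under 0.05. DESeq2's Wald test called 2 genes higher and limma's voom 0. In either direction edgeR called 0.0136% of tested genes, and neither of the family members that were tested was among them. Every Tppp3 AAV2 library lay above every control in 6.92% of tested genes, Tppp3 among them, and below every control in 7.02%.

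**Figure D2:**
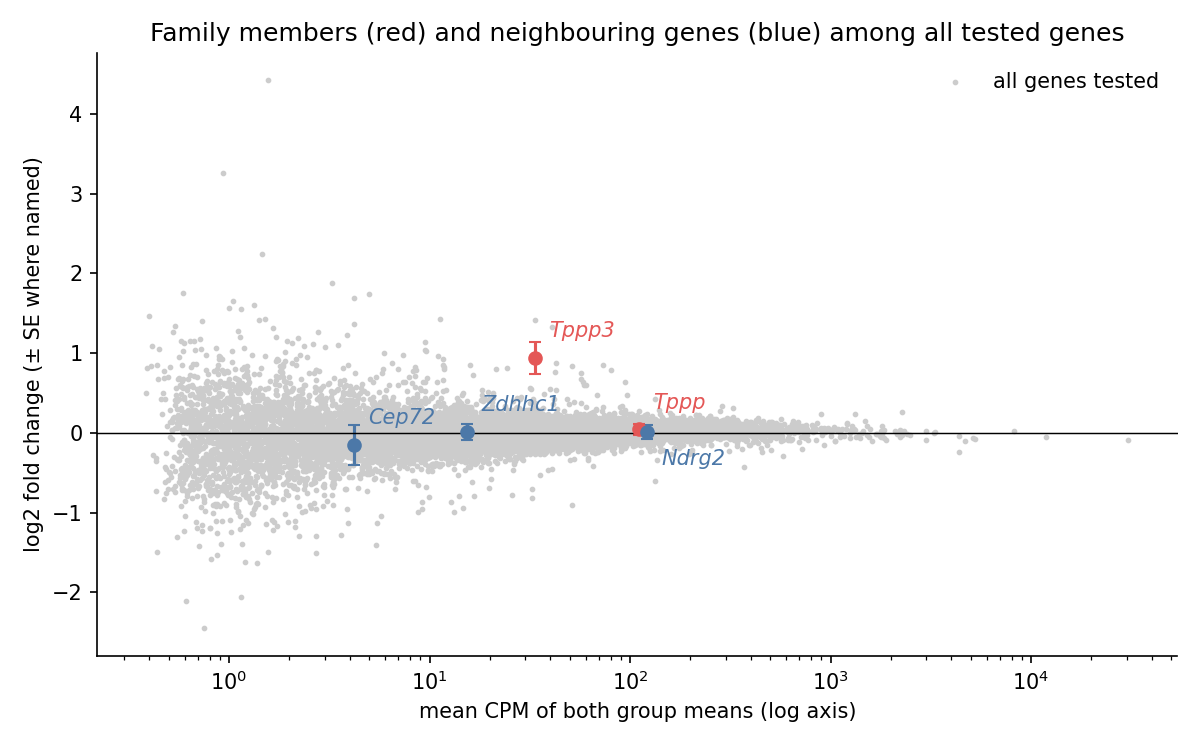
Fitted log2 fold change of each tested gene against the mean CPM of both groups on a log axis, with the family members in red and their neighbouring genes in blue, each with its SE. Tppp3 stands at 0.94 above a dense band of genes near 0, in which Tppp, Zdhhc1, Ndrg2 and Cep72 lie.

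Tppp, the longest-known member of the family, was the most abundant of the 3 by counts and its groups overlapped. Its counts were 1325, 1740 and 1129 in control replicates 1, 2 and 3, and 2288, 2305 and 2431 in the Tppp3 AAV2 replicates. Scaled to library size these were 117.1, 106.9 and 102.03 CPM in the controls, and 116.2, 104.0 and 115.4 CPM in the Tppp3 AAV2 libraries. The lowest and the highest library were both controls, so the Tppp3 AAV2 values lay within the control range. The means were 108.7 ± 7.70 and 111.9 ± 6.87 CPM (SD, n = 3 each). The log2 fold change of Tppp was 0.041 ± 0.065 (SE), with an adjusted p of 0.926 in edgeR's test and a 95% interval from -0.10 to 0.18. The exact permutation test, two-sided, gave p = 0.7. The interval leaves room for a difference of up to 1.14-fold in favour of the vector, well short of the fitted value for Tppp3.

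Tppp was higher in the libraries with a high level of pigment epithelium markers. The pigment epithelium is the cell layer behind the photoreceptors. The mean log2 level of its 10 tested markers lay 1.11 above the average of all libraries in control replicate 1, and 1.16 and 1.14 above it in Tppp3 AAV2 replicates 1 and 3. These are the libraries in which Tppp was above 115 CPM. In control replicates 2 and 3 and Tppp3 AAV2 replicate 2 the marker level was -1.29, -1.61 and -0.51. With that level as a covariate the Tppp log2 fold change turned to -0.047 (edgeR adjusted p = 0.859), and that of Tppp3 was 0.99 (adjusted p = 0.591). The marker level was unevenly split between the groups, so this fit cannot fully separate it from the vector. Mapt, Aqr, Usp15, Poc5 and Slc38a3, described below, were high in the same libraries, so the pattern is not particular to Tppp. Whether pigment epithelium RNA contributes Tppp reads was not tested. In whole tissue, fewer cells of a type and less RNA per cell cannot be told apart.

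Tppp2, the member known from the testis, had 0 counts in each of the 6 libraries. A count of 0 allows a level of up to 0.271 CPM in the shallowest library and 0.135 CPM in the deepest, taking 3 counts as the limit. Over the pooled libraries of a group the limits were 0.0776 CPM in the controls and 0.0477 CPM with Tppp3 AAV2. Tppp2 was thus not detectable at this depth in either group, it did not enter the test, and no fold change can be given for it. These limits cover counting error only.

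The order of the family by level depended on transcript length and, for Tppp3, on the group. Divided by the length of all annotated exons in GENCODE M21, which is 1848 bases for Tppp3 and 5090 for Tppp, Tppp averaged 21.4 ± 1.51 CPM per kilobase in control and 21.98 ± 1.35 in Tppp3 AAV2 libraries. On the same scale Tppp3 averaged 12.4 ± 2.53 and 23.8 ± 4.77 CPM per kilobase (SD, n = 3 each). Tppp therefore stood above Tppp3 in each control library. In the Tppp3 AAV2 libraries they were close, with 127, 96.7 and 99.8 Tppp3 units per 100 of Tppp on this scale. Taking instead the 1127 bases of the main Tppp3 transcript, an alternative chosen after the data were seen, the mean ratio was 96.7 instead of 59.0 per 100 in the controls and 176.9 instead of 107.9 with the vector. Control replicate 3 then stood at 124.0, so the order in the controls depends on the length taken. The length of the transcript made from the vector is not given in the labels, which limits this scale for the Tppp3 AAV2 libraries. Per kilobase, Tppp stood above 81.5% to 84.3% of detected genes in the 6 libraries, and Tppp3 above 65.3% to 75.1% of them in the controls and 81.2% to 87.95% with the vector.

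A ratio of genes within a library does not depend on how libraries are scaled. For every 100 Tppp counts, the control replicates 1, 2 and 3 held 16.0, 20.8 and 27.5 Tppp3 counts, and the Tppp3 AAV2 replicates held 46.2, 35.1 and 36.2. Each vector library lay above each control. The means were 21.4 ± 5.75 and 39.2 ± 6.11 (SD, n = 3 each), 1.83 times as high with the vector. Seen as a share, Tppp supplied between 78.5% and 86.2% of the family's counts in the controls and between 68.4% and 74.02% with the vector. The exact binomial 95% intervals of the nearest pair, control replicate 3 and Tppp3 AAV2 replicate 2, were 76.2% to 80.6% and 72.4% to 75.6%. They cover counting error only, not the spread between libraries.

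Zdhhc1, which encodes a palmitoyltransferase, is the nearest named protein-coding neighbour of Tppp3 on one side in the RefSeq annotation of GRCm38.p6, and gives a reference from the same part of the genome. It held 14.9, 14.8 and 16.4 CPM in the control replicates and 14.8, 15.97 and 15.5 CPM in the Tppp3 AAV2 replicates. The Zdhhc1 groups overlapped, with a fitted log2 difference of 0.013 ± 0.099 (SE; edgeR adjusted p = 0.989). Tppp3 counts per Zdhhc1 count were 1.26, 1.51 and 1.71 in the controls and 3.62, 2.29 and 2.69 with the vector. Lrrc36, the neighbour on the other side, had between 0 and 7 counts per library and was too low to test.

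The neighbours of the other members gave little contrast. Cep72, a centrosomal protein gene beside Tppp, averaged 4.43 ± 0.829 CPM in control and 3.96 ± 0.967 in Tppp3 AAV2 libraries (SD, n = 3 each; edgeR adjusted p = 0.927). Ndrg2, a gene of glial cells beside Tppp2, averaged 121.2 ± 2.54 and 121.96 ± 16.6 CPM (adjusted p = 0.990), so the undetected Tppp2 lies next to a gene with at least 1330 counts in each library. Zdhhc11 and Rnase13, on the other sides of Tppp and Tppp2, had at most 2 counts and 1 count in any library.

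Ganglion cells are the cells that AAV2 is used to reach, and their markers offer another base for Tppp3. The 20 ganglion cell markers, which include Rbpms, Slc17a6, Pou4f1, Nefl and Thy1, summed to between 1040 and 1066 CPM in control libraries and between 1002 and 1120 CPM with Tppp3 AAV2. Per 1000 counts of these markers, the control replicates held 17.9, 21.4 and 26.3 Tppp3 counts and the Tppp3 AAV2 replicates held 48.0, 36.4 and 39.96. The means of 21.9 ± 4.21 and 41.4 ± 5.92 (SD, n = 3 each) differed 1.90-fold. On the same base Tppp stood at 103.5 ± 8.11 and 105.9 ± 3.75. Of the 19 markers tested, 11 were positive and 8 negative, with a median log2 fold change of 0.0095, and 0 passed in edgeR. Eomes, a transcription factor of some ganglion cell types, had the smallest p among them (log2 fold change 0.36, unadjusted p = 0.0494, adjusted p = 0.688).

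**Figure D3:**
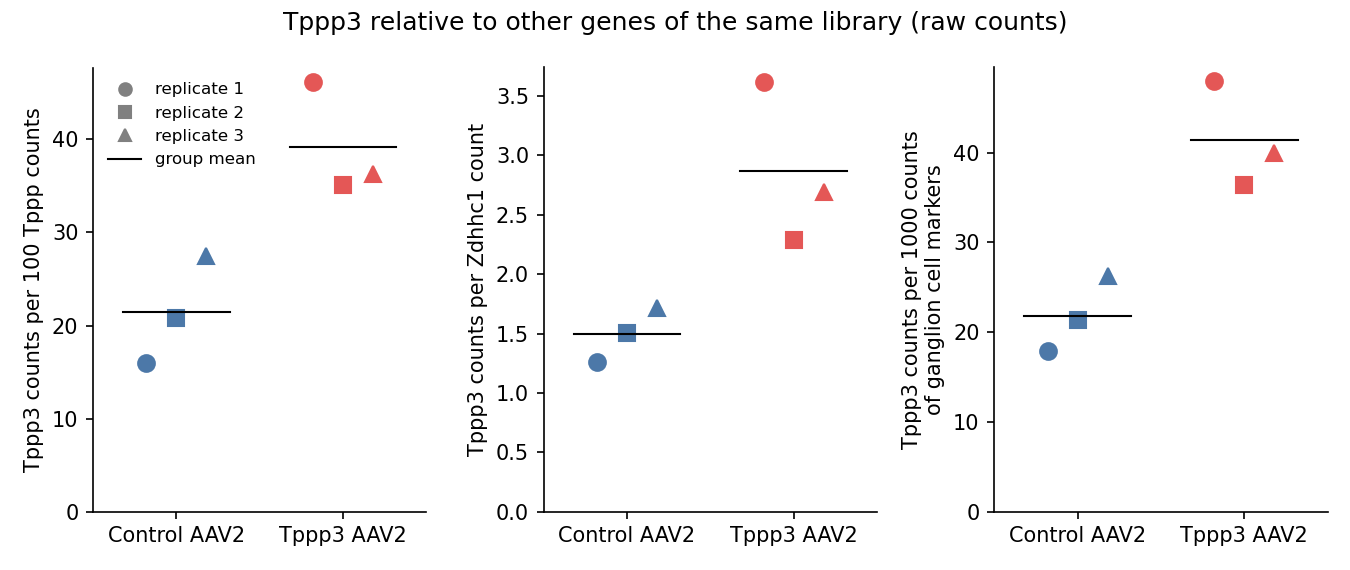
Tppp3 counts in each library relative to Tppp, to the neighbouring gene Zdhhc1 and to the summed ganglion cell markers, on vertical axes that start at 0, with a line at each group mean. On each base the lowest Tppp3 AAV2 library lies above the highest control, at 35.1 against 27.5, 2.29 against 1.71 and 36.4 against 26.3.

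Counts of 4 Y-linked genes divided the libraries by sex, at 235.3 CPM in control replicate 1 and 223.5 CPM in Tppp3 AAV2 replicate 2 against at most 2.13 CPM in the others. The male library of each group had the lowest Tppp3 level of its group. Between the male libraries the level was 1.95 times as high with the vector (18.7 and 36.5 CPM, 1 library each), and between the female libraries 1.90 times (means of 25.1 and 47.8 CPM, 2 libraries each). With sex as a covariate the log2 fold change of Tppp3 was 0.94 ± 0.12 (SE), with an unadjusted p of 5.0e-05 and an adjusted p of 0.163 in edgeR's test. Within the sexes Tppp went in opposite directions, at 0.888 times between the male libraries and 1.11 times between the female ones. A difference of Tppp3 between the sexes was not tested.

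The Tppp3 difference kept its direction when single libraries were left out. Its log2 fold change ranged from 0.76, without Tppp3 AAV2 replicate 1, to 1.10, without control replicate 3, and its edgeR adjusted p from 0.376 to 0.907. Thinning each library to the depth of the shallowest gave 0.93 (adjusted p = 0.612). That of Tppp ranged from -0.0011 to 0.094 over the same omissions, with an adjusted p of at least 0.705.

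**Figure D4:**
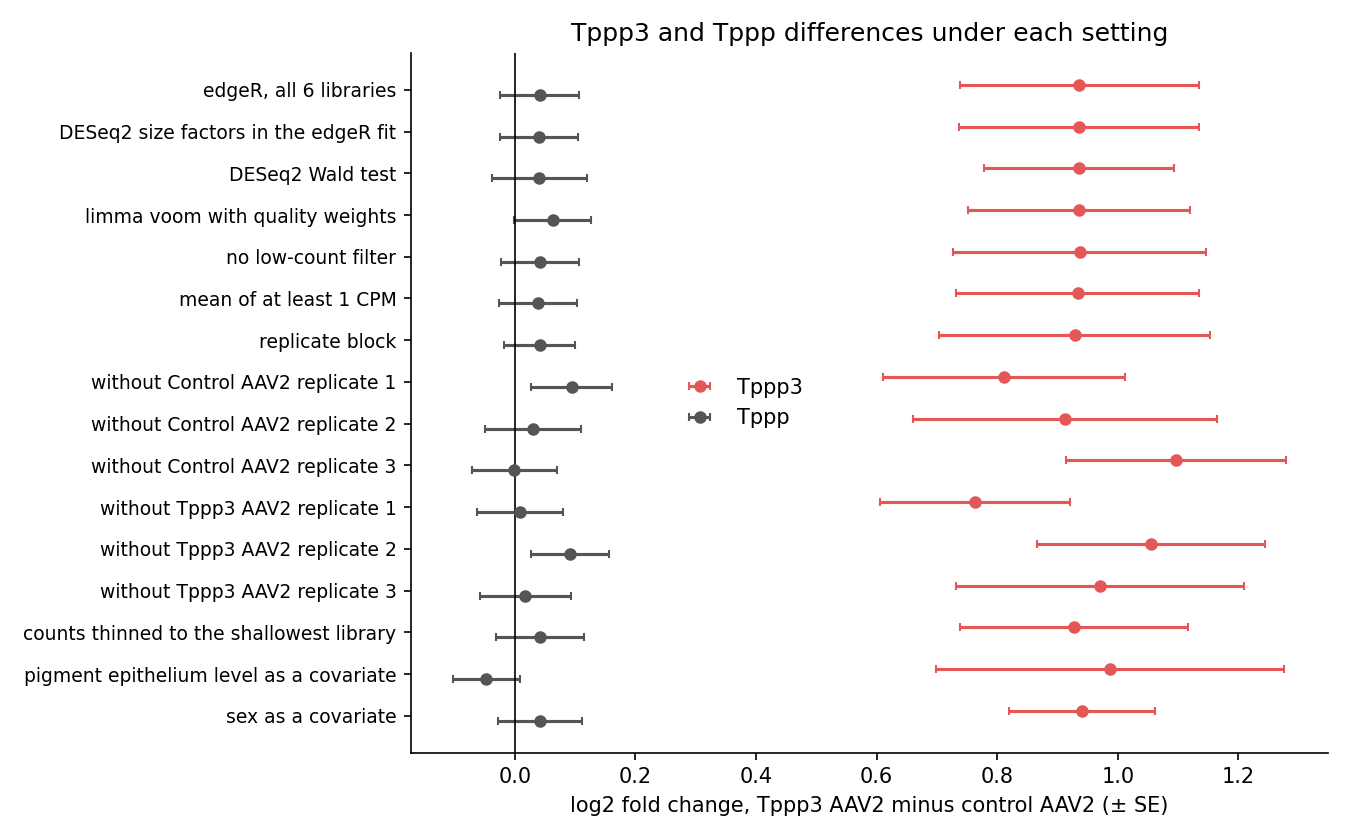
Log2 fold change of Tppp3 (red) and Tppp (grey), each ± SE, in the fit on all 6 libraries and under each other setting. Tppp3 lies between 0.76 and 1.10 throughout, and Tppp between -0.047 and 0.094, on either side of 0.

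Tubulins, the proteins that TPPP family members bind, differed little between the groups. All 16 listed tubulin genes were tested, and 11 were positive and 5 negative, with a median log2 fold change of 0.067. Over all tested genes 50.9% were positive and 49.1% negative, with a median of 0.0030. None of the 16 passed in edgeR, and 0 had an unadjusted p under 0.05 in either direction. Tubb5, a widely expressed beta-tubulin, averaged 351.1 ± 22.03 CPM in control and 380.5 ± 11.9 in Tppp3 AAV2 libraries (SD, n = 3 each; log2 fold change 0.12, adjusted p = 0.717). Tubb4a stood at 0.092 (adjusted p = 0.728), Tuba4a at 0.11 (adjusted p = 0.730) and Tubd1, the delta-tubulin of centrioles, at 0.35 (adjusted p = 0.767). In these 4 genes, 25% of the list against 6.92% of all tested genes, every Tppp3 AAV2 library lay above every control. In 1 of the 16 every Tppp3 AAV2 library lay below every control, against 7.02% of all tested genes.

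Among 33 genes whose products assemble or stabilise microtubules, 25 were positive and 8 negative, with a median log2 fold change of 0.053. None passed in edgeR. At an unadjusted p under 0.05, 6 of the 33 (18.2%, against 3.67% of tested genes) were higher and 0 lower (3.55% of tested genes). Camsap2, which caps microtubule minus ends, averaged 188.4 ± 2.25 CPM in control and 209.5 ± 9.37 in Tppp3 AAV2 libraries (SD, n = 3 each; log2 fold change 0.15, adjusted p = 0.648). Map7, a partner of kinesin, averaged 322.3 ± 6.37 and 356.8 ± 12.8 CPM (0.15, adjusted p = 0.648), and Map6, which stabilises microtubules against cold, 123.1 ± 6.49 and 136.6 ± 4.65 CPM (0.15, adjusted p = 0.648). Mapre2, a plus-end binding protein, stood at 0.15 (adjusted p = 0.673). Each was about 0.15 on the log2 scale, against 0.94 for Tppp3.

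Enzymes that act on tubulin acetylation had log2 fold changes near 0. Hdac6, the deacetylase that TPPP binds, was at 74.9 ± 4.22 CPM in control and 75.6 ± 3.29 in Tppp3 AAV2 libraries (SD, n = 3 each; log2 fold change 0.014, edgeR adjusted p = 0.981). The tubulin acetyltransferase gene Atat1 and the deacetylase gene Sirt2 had log2 fold changes of 0.051 and -0.0071 (adjusted p = 0.931 and 0.989). Of 11 genes for kinases that can phosphorylate TPPP, or their regulatory subunits, 7 were positive and 4 negative, with a median of 0.032, a range from -0.12 to 0.16 and 0 past the threshold in edgeR. At an unadjusted p under 0.05, 1 of the 11 (9.09%, against 3.67% of tested genes) was higher and 0 lower. In 2 of the 11 (18.2%, against 6.92%) every Tppp3 AAV2 library lay above every control, and in 0 below.

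**Figure D5:**
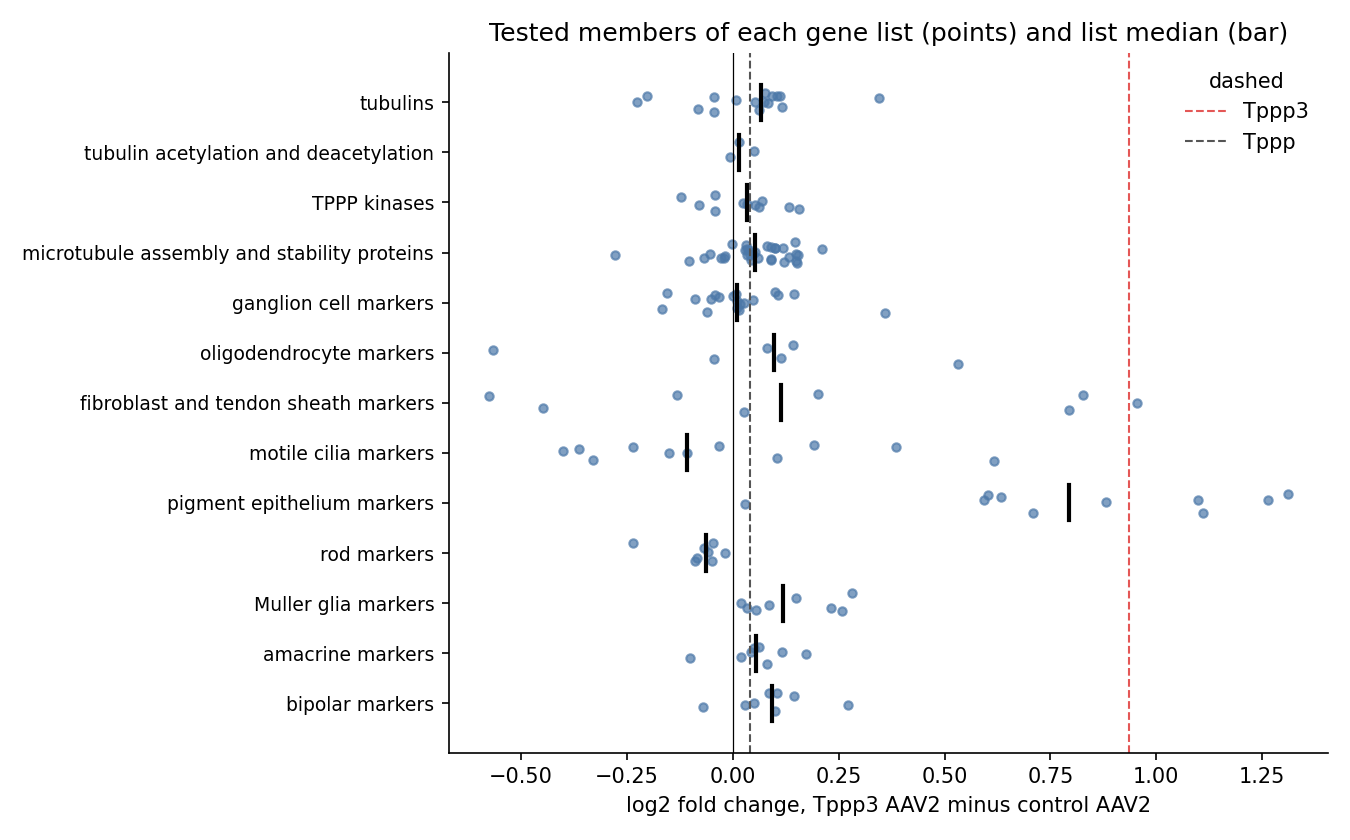
Log2 fold change of the tested genes of the lists described, 1 point per gene, with a bar at the list median and dashed lines at Tppp3 (0.94) and Tppp (0.041). Genes of the tubulin, microtubule, acetylation and kinase lists lie between -0.28 and 0.35, and the pigment epithelium list has the highest median, at 0.79.

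Markers of cells in which the family is known were low or mixed. Of 14 oligodendrocyte markers, Mobp and Olig2 had 0 counts in each library, Mog stood between 0.177 and 0.427 CPM and Mag between 0.0475 and 0.354 CPM, while Tppp exceeded 102 CPM throughout. Mbp was present at 31.8 ± 3.14 CPM in control and 34.4 ± 1.56 in Tppp3 AAV2 libraries (SD, n = 3 each; adjusted p = 0.812). The 14 markers together summed to between 53.9 and 70.2 CPM in control libraries and between 62.3 and 70.4 CPM with the vector. Without division by transcript length, this was below Tppp alone. The part of these markers in the Tppp level was not tested.

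For Tppp3, the lists held tendon sheath and motile cilia genes. The tendon gene Tnmd had 2 counts in control replicate 2 and 0 in the other libraries. The 12 fibroblast and tendon sheath markers summed to between 37.6 and 55.4 CPM in control libraries and between 53.2 and 57.9 CPM with the vector, and 5 of the 8 tested were positive. Col1a2, a fibroblast collagen, averaged 6.17 ± 3.39 and 10.9 ± 1.91 CPM (SD, n = 3 each; log2 fold change 0.83, adjusted p = 0.717), and its groups overlapped. Fmod, of the same list, stood at 0.79 (adjusted p = 0.812). The other 3 of the 8 were negative, among them Scx at -0.45 and Col3a1 at -0.58 (edgeR adjusted p = 0.767 and 0.824). The groups of Fmod, Scx and Col3a1 also overlapped. Foxj1, the transcription factor of motile cilia, averaged 5.78 ± 0.470 CPM in control and 4.50 ± 0.125 in Tppp3 AAV2 libraries (-0.36, adjusted p = 0.695), in the direction opposite to Tppp3. Ccdc39, Tubb4b and Tekt1, next by p among the motile cilia genes, were positive at 0.19, 0.10 and 0.62 (edgeR adjusted p = 0.707, 0.768 and 0.779). Tekt1 averaged 0.67 CPM in control and 1.03 CPM in Tppp3 AAV2 libraries. Its groups did not overlap, on 7 to 27 counts per library, and neither did those of Foxj1. That is 1 of the 11 tested in each direction, against 6.92% of all tested genes higher and 7.02% lower. Of the 11 motile cilia genes tested, 4 were positive and 7 negative, with a median of -0.11. Their part in the Tppp3 difference was not tested.

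Markers of rods, Müller glia, amacrine and bipolar cells had smaller differences than Tppp3, while several pigment epithelium markers had larger ones. Rods, the most numerous cells, were plainly present, with the phosphodiesterase gene Pde6a between 2537 and 3355 CPM, and their 8 markers were negative throughout with a median log2 fold change of -0.063. The medians were 0.12 over 8 Müller glia genes, 0.055 over 8 amacrine cell genes and 0.093 over 8 bipolar cell genes. In these lists 8, 7 and 7 genes were positive. Of all tested genes 50.9% were positive and 49.1% negative. The pigment epithelium markers were positive in 10 of 10, with a median of 0.79. They summed to between 243.02 and 404.2 CPM in control libraries and between 261.2 and 430.7 CPM with the vector. This sum includes Otx2, which is also on the bipolar cell list and stood at 0.029 ± 0.047 (SE), so it is not of that layer alone. Of the 10 markers, Tyr, Slc45a2, Pmel and Tyrp1, all genes of melanin synthesis or pigment granules, had fitted log2 fold changes above the 0.94 of Tppp3. These were 1.31 ± 1.22, 1.26 ± 0.66, 1.11 ± 0.81 and 1.10 ± 1.11 (SE). The 4 genes had means below 5 CPM in both groups and edgeR adjusted p between 0.734 and 0.880. Tyr, Pmel and Tyrp1 held 2.56, 3.98 and 5.57 CPM in control replicate 1, within the Tppp3 AAV2 range. In control replicates 2 and 3 they held at most 0.994 CPM. Of these 4, the groups of Slc45a2 did not overlap and the others did. Slc45a2 was the only 1 of the 10 tested markers without overlap (10%, against 6.92% of all tested genes higher). It held 6, 6 and 0 counts in the control replicates. Of the 146 listed genes tested in all, 0 passed in edgeR.

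Profiles across the 6 libraries were then compared with those of the members. Likeness was measured as the root mean square difference between log2 CPM values centred on each gene's mean, over the 10124 other genes of at least 10 CPM that remained after symbols of predicted genes and pseudogenes were left out. The genes nearest to Tppp3 were Cyp4a14, a fatty acid hydroxylase, Ppp1r42, Hspa5, the chaperone BiP of the endoplasmic reticulum, Xbp1, a transcription factor of the unfolded protein response, and Slc5a3, a myo-inositol transporter. They lay at 0.299 to 0.338 from Tppp3, against a median of 0.527 over those genes and 0.522 for a flat profile. Hspa5 held 271.3, 279.1 and 322.01 CPM in the control replicates and 414.6, 311.3 and 359.1 CPM in the Tppp3 AAV2 replicates. It shared with Tppp3 the lowest value in control replicate 1 and the highest in Tppp3 AAV2 replicate 1, but its groups overlapped. The 5 genes had log2 fold changes between 0.31 and 0.53, and adjusted p between 0.639 and 0.680 in edgeR. They were picked for likeness to Tppp3 over these same 6 libraries, so shared direction and extremes follow in part from the selection.

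The genes nearest to Tppp were Mapt, which encodes the axonal microtubule protein tau, the splicing helicase gene Aqr, the deubiquitinase gene Usp15, the centriole gene Poc5 and the glutamine transporter gene Slc38a3. They lay at 0.0146 to 0.0189 from Tppp, where the median gene lay at 0.113 and a flat profile at 0.0810. Mapt held 191.6, 176.03 and 171.2 CPM in the control replicates and 194.4, 174.9 and 191.9 CPM in the Tppp3 AAV2 replicates. Like Tppp, it was high in control replicate 1 and Tppp3 AAV2 replicates 1 and 3 and lower in the other libraries. With 6 libraries and so many genes, some close profiles are found for any gene, and the likeness is given as a description.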

How the data were processed

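Poly(A)-selected RNA of injured mouse retina was sequenced as paired reads of 150 bases from libraries made without strand marking, per the labels' protocols and kit name. The authors deposited raw counts for each gene symbol, as the file headers say. The build is GRCm39 (mm39), per the submitters' processing notes. Neither aligner, counting tool, annotation nor strand setting is given in the sources used. No coordinates are printed, since the reference annotation was of another build.

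The labels list 4 control and 3 Tppp3 samples, while the treatment protocol gives 3 control and 4 Tppp3 retinas. Columns were used where their name matched a sample title, which gave 3 libraries per group. The remaining control sample was not analysed. The table has 4 columns named as Tppp3 libraries, as the protocol gives, and 1 of them matched no title and was not used. Libraries of a group differed by more than sampling noise (chi-square per gene between 4.098 and 13.9). The labels do not say that the libraries came from different animals. By Y-linked counts each group held 1 male and 2 female libraries, so the libraries of a group were not all from the same animal. The p-values set the group difference against the spread between these libraries.

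Of 25655 rows, 14750 passed edgeR's filterByExpr. Counts were scaled by TMM and tested with edgeR's quasi-likelihood F test with the robust option, two-sided, with Benjamini-Hochberg adjustment over all tested genes and a threshold of 0.05. CPM are relative to the effective library size, and log2 CPM used a prior count of 2. Coding sequences and exon lengths came from GENCODE M21, and neighbouring genes from RefSeq (GRCm38.p6). Coding sequences were aligned with Biopython 1.88. Analyses ran in R 4.3.3 (DESeq2 1.42.0, limma 3.58.1, edgeR 4.0.16) and Python 3.11.15 (matplotlib 3.10.9).

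The members and the 14 gene lists (164 symbols, all with a row) were chosen with earlier results of these data known. Named genes were the 3 members, up to 4 genes of smallest p per list, the nearest named protein-coding gene on each side of each member, and the 5 genes of closest profile to Tppp3 and to Tppp with a mean of at least 10 CPM. Symbols of predicted genes and pseudogenes were not eligible for the latter. Some genes that the rule selects, and 1 list, are not reported here.

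Alternatives were a Wald test in DESeq2, its size factors in the edgeR fit, voom with quality weights in limma, testing every gene with a count, a minimum mean of 1 CPM, the replicate number as a block, leaving out each library, thinning to equal depth, and the pigment epithelium level or sex, read from Y-linked counts, as a covariate.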

Additional observations from a re-analysis of the deposited data

How the results depend on the processing

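Tppp3 was higher with Tppp3 AAV2 under all 15 alternatives, with a log2 fold change from 0.76 to 1.10. It passed the threshold in DESeq2's Wald test alone (0.94, adjusted p = 1.3e-05), and the adjusted p ranged from 1.3e-05 to 0.907. Tppp passed under none. Its log2 fold change turned to -0.047 with the pigment epithelium covariate, and ranged from -0.0011, without control replicate 3, to 0.094 when single libraries were left out. The count ratio of Tppp3 to Tppp, on the log2 scale, was 0.87 and ranged from 0.70 to 1.09 when single libraries were left out. Tppp2 had 0 counts in each library, so no alternative gave it a value. The same replicate numbers gave no sign of pairing: deviations of same-numbered libraries correlated at -0.029, 0.051 and -0.26. Those of differently numbered libraries correlated at -0.22 to 0.26. With 3 libraries per group these correlations cannot exclude a pairing. With the replicate block the log2 fold change was 0.93 for Tppp3 (adjusted p = 0.675) and 0.041 for Tppp (adjusted p = 0.920).

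Genes past the threshold numbered 0 higher and 2 lower in edgeR. The higher count was 2 in DESeq2's Wald test, 1 with the pigment epithelium covariate and 0 to 2 when single libraries were left out. The lower count was 12 in DESeq2's Wald test, 1 in limma's voom, 6 without a low-count filter, 1 with the replicate block, 1 with the pigment epithelium covariate, 0 with the sex covariate and 0 to 1 when single libraries were left out. The cause was not tested.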
